A study of Homo sapiens with 12 samples.

Results

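Recombinant human and mouse erythroferrone (ERFE) were compared through the transcripts of Huh7 cells, an established line of human liver cancer cells that express hepcidin. The comparison used the 8 of 12 arrays whose titles name an added protein: 4 arrays of cells given human ERFE and 4 of cells given mouse ERFE, each at 10 µg/ml for 24 h. The remaining 4 arrays held untreated cells harvested at the same time (0 µg/ml), and they entered as the baseline and in the estimate of spread. Total RNA was labelled and hybridised to Illumina HT-12 v4 arrays, and 10891 named genes gave a signal on enough arrays to be tested. The question was what the proteins of the 2 species share and where they differ. How each protein was made is not given in the sources used here and the samples include no vehicle or control protein, so the species of the protein and its preparation cannot be told apart. The labels do not say whether replicate arrays stand for separate cultures, so p-values measure the spread between arrays, which may be technical. A pair of mouse ERFE arrays carries the same replicate number and is called 3-A4 and 3-B4 after the codes in the titles, whose meaning is not given.

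ERFE, a hormone made by erythroblasts, binds bone morphogenetic proteins (BMPs), the ligands whose receptors phosphorylate SMAD1, SMAD5 and SMAD8 in hepatocytes. Less BMP signalling means less transcription of HAMP, the gene of hepcidin, which limits the release of iron into blood. CXCL1, CXCL2 and CXCL6 belong to a family of chemokines that attract neutrophils through the receptor CXCR2, and NF-kB, a transcription factor of inflammation, is a known activator of several of them.

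The promoters of 3 of these chemokines and of HAMP are printed here because the results turn on these genes. They come from RefSeq (assembly GRCh38.p14) and cover the 250 bases before each gene's start, 5′ to 3′ on the gene's strand. Capitals mark a form of the NF-kB site (GGG, any 2 bases, then TTTCC) in the chemokine genes and GGCGCC, a core of BMP-responsive elements, in HAMP. Both strands were searched, and no printed window held both motifs.
CXCL1, chr4:73869143-73869392, + strand: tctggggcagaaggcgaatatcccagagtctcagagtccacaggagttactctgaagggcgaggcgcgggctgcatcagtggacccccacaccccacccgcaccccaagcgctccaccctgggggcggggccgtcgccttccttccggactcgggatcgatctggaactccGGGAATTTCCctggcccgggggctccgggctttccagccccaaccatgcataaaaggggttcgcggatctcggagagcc
CXCL2, chr4:74099196-74099445, - strand: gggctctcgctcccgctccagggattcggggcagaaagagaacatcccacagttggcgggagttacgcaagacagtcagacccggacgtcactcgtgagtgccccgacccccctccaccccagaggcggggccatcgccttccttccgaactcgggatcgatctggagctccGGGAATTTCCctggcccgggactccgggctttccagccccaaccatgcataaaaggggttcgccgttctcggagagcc
CXCL6, chr4:73836428-73836677, + strand: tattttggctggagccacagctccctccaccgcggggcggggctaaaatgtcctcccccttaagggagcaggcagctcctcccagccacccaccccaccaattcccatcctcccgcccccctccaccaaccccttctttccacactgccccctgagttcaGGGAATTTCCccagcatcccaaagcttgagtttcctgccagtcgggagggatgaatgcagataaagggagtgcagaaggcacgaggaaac
HAMP, chr19:35282278-35282527, + strand: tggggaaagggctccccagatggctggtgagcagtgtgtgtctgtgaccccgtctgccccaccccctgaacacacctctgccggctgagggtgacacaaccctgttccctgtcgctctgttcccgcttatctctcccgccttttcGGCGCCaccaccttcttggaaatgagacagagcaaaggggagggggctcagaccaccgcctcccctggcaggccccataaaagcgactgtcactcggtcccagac
Counting back from -1 at the base before the start, the NF-kB letters began at -79 in CXCL1, -78 in CXCL2 and -90 in CXCL6. They also occurred in the windows of CXCL3 and CXCL5 and not in those of CXCL8 and NFKBIZ. Of all 35116 promoters in the table, 608 (1.73%) held them. GGCGCC began at -105 in HAMP and occurred in 16.4% of all promoters, and it was found in BAMBI and NFKBIZ and not in the windows of ID1, ID2, ID3, SMAD6, SMAD7 or MSX1. These matches describe the letters of the windows and not the binding of a factor. Other forms of either site were not searched, so a window without these letters may still hold one.

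The share of probes detected on each array was 34.5% (mouse ERFE replicate 3-A4) to 39.1% (mouse ERFE replicate 1). A probe counted as detected at a detection p under 0.05. The arrays differed in signal range, given as the 95th percentile of raw signal over its median. This ratio was 14.40, 11.95, 12.65 and 13.77 on untreated replicates 1 to 4. It was 13.03, 14.40, 15.37 and 13.11 on human ERFE replicates 1 to 4. On mouse ERFE replicates 1, 2, 3-A4 and 3-B4 it was 14.68, 11.73, 12.06 and 11.71. The part of signal range in any difference below was not tested. Both groups expressed the hepatoma markers, with ALB (albumin) at 14.35 ± 0.11 and 14.38 ± 0.06 (log2 signal, SD, n = 4) and AFP (alpha-fetoprotein) at 14.20 ± 0.08 and 14.16 ± 0.10 with human and mouse ERFE. All 16 hepatocyte and hepatoma markers could be tested. Transcripts of MHC class II, the antigen-presenting molecules of dendritic and B cells, set some arrays apart. The mean log2 signal of the 6 measured class II genes was 7.44 to 8.78 on 6 arrays and 5.49 to 6.31 on the other 6. The high arrays were human ERFE replicates 1 and 3, mouse ERFE replicate 1 and 3 untreated arrays. All arrays with the number 1 in the title code were high, and all with the number 4 were low. The number 4 occurs on mouse ERFE and untreated arrays and on no human ERFE array, so class II level, title number and protein are partly tied. Within the class II list HLA-DRB1, HLA-DPB1 and CIITA were detected on 0 of the 12 arrays, as were the leukocyte genes PTPRC and CD163. Of 20 leukocyte markers 10 were measured, among them AIF1, CD14, CD68, CD3D and LYZ on all 12 arrays. The mean log2 signal of these 10 was 7.31 to 8.01 with human ERFE, 7.28 to 7.96 with mouse ERFE and 7.32 to 7.94 in untreated cells. It followed class II, with 7.72 to 8.01 on the 6 high arrays and 7.28 to 7.48 on the 6 low ones. The part of these transcripts in any difference below was not tested, and values within the high and the low arrays are given where a result turns on them. In such bulk RNA fewer cells of a type and less RNA per cell cannot be told apart.

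**Figure D1:**
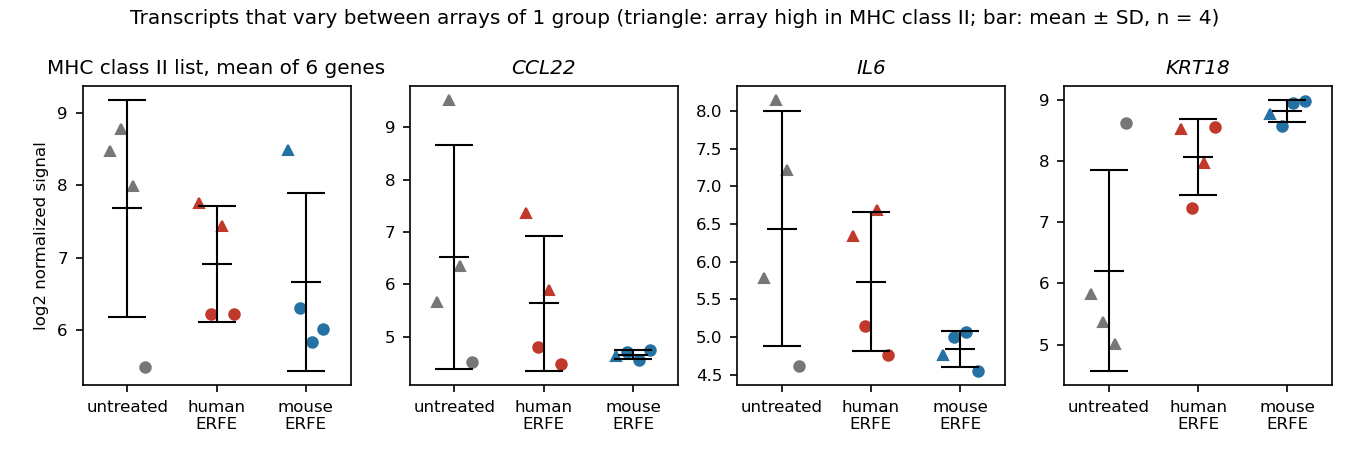
Log2 normalized signal (y axis) of the MHC class II list (mean of 6 genes) and of CCL22, IL6 and KRT18 on each array, by group; triangles are the 6 arrays high in class II transcripts and bars are mean ± SD (n = 4). The class II level is 7.44 or more on the triangles and 6.31 or less on the circles in every group.

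Across all genes the cells given human and mouse ERFE were close. The median log2 difference (human minus mouse) was 0.01 over the 10891 genes, but quantile normalization of all arrays sets this value near 0 in advance. Of these genes 0 differed by more than 1 on the log2 scale, which is 2-fold. For 8309 genes (76.3%) the 95% confidence interval of the difference lay within ±0.5, a 1.41-fold change either way, and for 10773 genes (98.9%) within ±1. A human and a mouse ERFE array differed gene by gene with a median SD of 0.326 over the 16 such pairs. That is close to the 0.316 of human ERFE pairs and the 0.331 of mouse ERFE pairs (6 pairs each). With median centring in place of quantile normalization the median difference of all genes became 0.15, and 85.1% of genes against 54.1% were higher with human ERFE, so small differences in one direction are read against that shift.

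Of the 10891 genes, limma called 1 higher with human ERFE (0.00918% of genes) and 0 higher with mouse ERFE at a Benjamini-Hochberg adjusted p of 0.05. Before adjustment, 339 genes (3.11%) were higher and 197 (1.81%) lower with human ERFE at p under 0.05. The 4 human arrays lay all above the 4 mouse arrays for 174 genes (1.6%) and all below for 90 (0.826%). Among the 4494 detected probes without a single gene symbol 0 were called and 245 (5.45%) had an unadjusted p under 0.05.

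**Figure D2:**
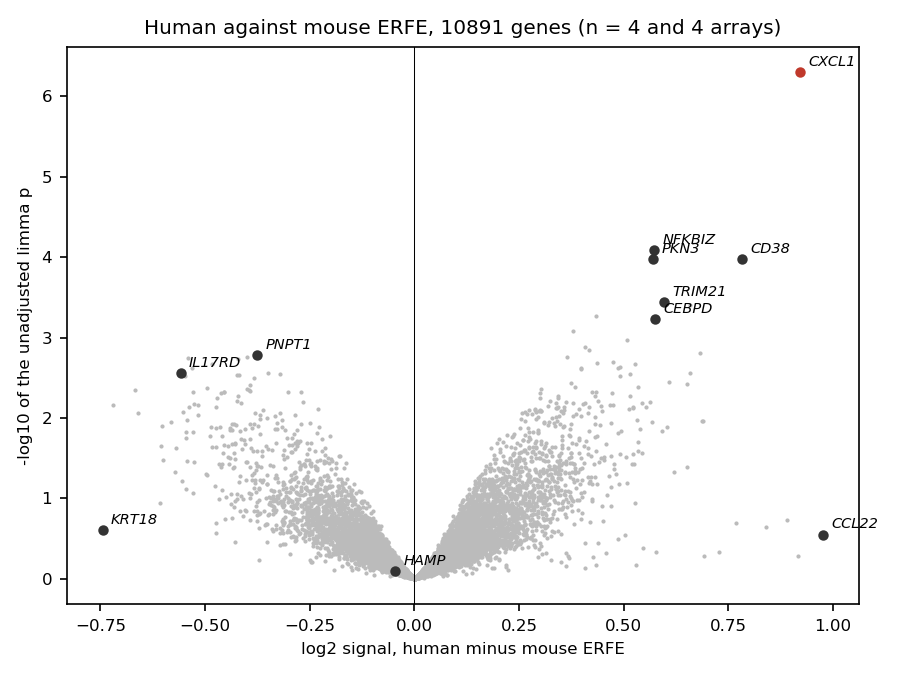
Each of the 10891 genes by its log2 signal difference, human minus mouse ERFE (x axis), and the -log10 of its unadjusted limma p (y axis), n = 4 arrays in each group. CXCL1 (red), at 0.92, lies above all other genes on the y axis, while CCL22 at 0.98 and KRT18 at -0.74 have the widest differences and high p-values.

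The called gene was CXCL1, the neutrophil chemokine whose promoter is printed first. Its log2 signal was 8.37, 8.65, 8.65 and 8.63 on human ERFE replicates 1 to 4. It was 7.42, 7.70, 7.75 and 7.75 on mouse ERFE replicates 1, 2, 3-A4 and 3-B4, and 7.42, 7.45, 7.55 and 7.33 on the untreated arrays. Every human ERFE array lay above every array of the other groups, and the mouse and untreated arrays overlapped. The means were 8.58 ± 0.14 and 7.66 ± 0.16 (SD, n = 4), a log2 difference of 0.92 ± 0.10 (SE, 95% interval 0.71 to 1.13) or 1.89-fold, with an adjusted p of 0.00547. Against untreated cells CXCL1 rose by 1.14 with human ERFE (2.20-fold, adjusted p = 0.00049), and it had 0.22 with mouse ERFE (1.16-fold, adjusted p = 0.422). Among arrays high in class II transcripts the difference was 1.09 (2 human arrays, 1 mouse array), and among the low ones 0.91 (2 and 3). Within the title letters A, B and C it was 0.90, 1.07 and 0.80, and within the title numbers 1 and 2, where both proteins occur, 0.95 and 0.95. It passed the threshold whichever of the 12 arrays was left out (0.84 to 0.99). The call was lost, at a like difference, with the 8 ERFE arrays fitted alone (0.92, adjusted p = 0.0731), with the title number as a block (0.90, adjusted p = 0.0514) and without the 6 arrays high in class II (0.91, adjusted p = 0.741). One CXCL1 probe was measured, and whether it also reads related chemokine transcripts was not tested.

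The neutrophil chemokines as a list had a median difference of 0.30, against 0.01 for all genes. Of 7 measured members 5 were higher with human ERFE and 2 lower, and 1 was called, where 0.00918% of all genes were. The arrays of 3 did not overlap, all above, where 1.6% of all genes lay so. This list holds CXCL1 and was chosen with earlier results of these data known, so its counts are a description. CXCL6 had log2 signals of 8.27, 8.33, 8.36 and 8.24 with human ERFE and 7.95, 8.20, 7.94 and 7.89 with mouse ERFE. The human arrays were all higher, and all 8 lay above the untreated arrays (7.51 to 7.78). Its difference of 0.30 (95% interval 0.11 to 0.49) did not pass (adjusted p = 0.81), and a second probe gave 0.26. Against untreated cells CXCL6 rose by 0.67 with human ERFE (adjusted p = 0.00543), and it had 0.37 with mouse ERFE (adjusted p = 0.107). CXCL2 was dim: it was detected on 3 of 4 human and 0 of 4 mouse arrays, at 5.32, 5.91, 5.95 and 5.64 against 5.27, 5.26, 4.67 and 5.18. Its mean signal with human ERFE is therefore given as at least 1.22-fold higher, a bound that leaves out the spread between arrays. The difference did not pass (adjusted p = 0.81). CXCL5 had 0.32 (second probe 0.31) and CXCL8, or interleukin-8, 0.12 (second probe 0.16), with overlapping arrays. CXCL3 had -0.11 and PPBP -0.25.

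NFKBIZ, which encodes an atypical IkB protein that acts in the nucleus as a cofactor of NF-kB, had the next smallest p. Its log2 signal was 8.35, 8.29, 8.46 and 8.16 with human ERFE and 7.80, 7.94, 7.56 and 7.67 with mouse ERFE, beside 7.56 to 7.81 in untreated cells. The human arrays did not overlap with either other group, and the mouse and untreated arrays did with each other. The difference of 0.57 (95% interval 0.36 to 0.79) did not pass (adjusted p = 0.288). Against untreated cells NFKBIZ rose by 0.62 with human ERFE (adjusted p = 0.0247, a call that held in 18 of 29 alternatives) and had 0.05 with mouse ERFE (adjusted p = 0.925). Within the class II high and low arrays the difference was 0.61 and 0.50. CEBPD, an acute phase transcription factor induced by interleukins, had 8.16, 8.33, 8.60 and 8.07 with human ERFE and 7.81, 7.61, 7.72 and 7.71 with mouse ERFE. These arrays did not overlap, but 1 untreated array, at 8.11, lay above the lowest human one, and the difference of 0.57 did not pass (adjusted p = 0.8).

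The other NF-kB genes were measured as lists of subunits, feedback genes and targets. Of 17 measured subunits and feedback genes 0 were called, 13 were higher with human ERFE and 4 lower, and the median was 0.05. TNFAIP3, the ubiquitin-editing inhibitor A20, had 0.42 (interval 0.05 to 0.79) with overlapping arrays, and NFKBIB, an IkB protein, had 0.26. NFKBIA, the classical inhibitor IkB-alpha, had -0.12 (interval -0.31 to 0.07), and the subunits RELA and NFKB1 had 0.00 and 0.05. Of 12 further NF-kB targets 0 were called, with a median of 0.08, ZC3H12A, an RNase that degrades inflammatory mRNAs, at 0.53 and PLAU, urokinase, at -0.17. Both were dim: ZC3H12A was detected on 4 human and 1 mouse array, and PLAU on 2 human and 3 mouse arrays. Of 17 acute phase genes 0 were called and the median was 0.06, with SERPINA1 at 0.20, while CRP, LCN2 and SAA2 were detected on 0 arrays. The receptor genes had MYD88, the adaptor of Toll-like and interleukin-1 receptors, at 0.18, and TLR4 was detected on 0 arrays.

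**Figure D3:**
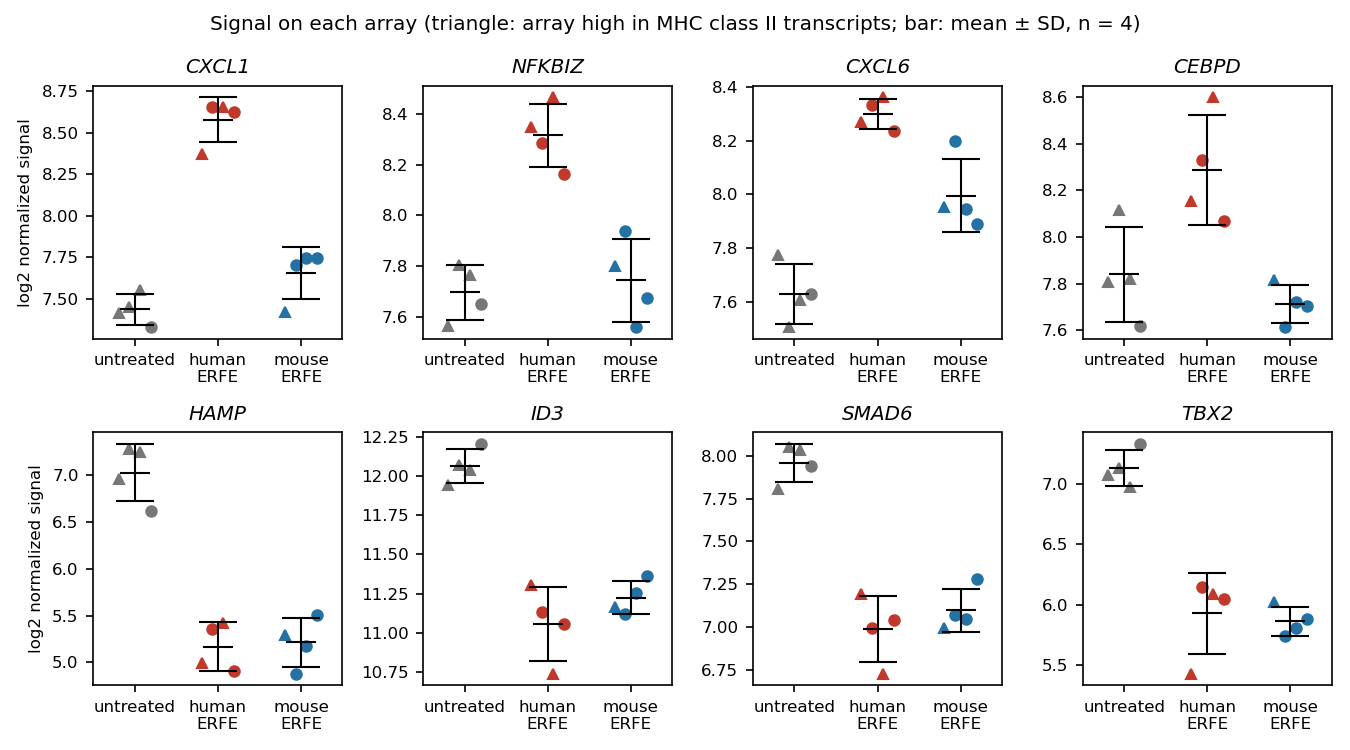
Log2 normalized signal (y axis) of 8 genes on each array of the 3 groups; triangles are arrays high in MHC class II transcripts and bars are mean ± SD (n = 4). For CXCL1 and NFKBIZ the human ERFE arrays stand apart from the other groups, while for HAMP, ID3, SMAD6 and TBX2 both proteins lie below untreated cells and overlap with each other.

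The other genes with the smallest p among those higher with human ERFE did not pass. PKN3, a serine/threonine kinase, had 6.31, 6.63, 6.59 and 6.62 with human ERFE and 6.03, 5.93, 5.88 and 6.04 with mouse ERFE. The human arrays lay in the range of untreated cells (6.35 to 6.76) or just under it, and the mouse arrays below. It had -0.01 with human ERFE against untreated cells and fell by 0.58 with mouse ERFE (adjusted p = 0.0443), a call that held in 7 of 29 alternatives. The direct difference was 0.57 (interval 0.35 to 0.79, adjusted p = 0.288). CD38, an ectoenzyme that consumes NAD, showed the same order, with 6.14 to 6.48 against 5.29 to 5.83 and 6.01 to 6.52 in untreated cells. It was detected on 4 of 4 human and 2 of 4 mouse arrays, and its difference was 0.78 (adjusted p = 0.288). POLE, the catalytic subunit of DNA polymerase epsilon, had 0.51, with -0.10 and -0.60 against untreated cells, and its arrays overlapped (adjusted p = 0.81). TRIM21, a cytosolic antibody receptor, had 0.60 (adjusted p = 0.713), CEP68, a centrosome protein, 0.66, ADAMTSL4 0.43 and SNORD35A, a small nucleolar RNA, at least 1.05-fold. HJV, the BMP co-receptor hemojuvelin that drives hepcidin, had 0.53 with arrays all above (adjusted p = 0.81) at one probe and -0.13 at a second. HAMP itself differed by -0.05.

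Among the genes higher with mouse ERFE 0 passed, and the 10 with the smallest p had differences from -0.32 to -0.56, each with an adjusted p of 0.81. IL17RD, an inhibitor of FGF receptor signalling, had 7.55, 7.36, 7.80 and 7.69 with human ERFE and 8.34, 8.50, 7.96 and 7.84 with mouse ERFE. The arrays did not overlap, though the untreated arrays (7.74 to 8.10) spanned the space between. RAB13, a GTPase of tight junction traffic, had 8.26 to 8.73 against 8.81 to 8.89, and NADK2, the mitochondrial NAD kinase, had a difference of -0.42. PNPT1, an RNA-degrading enzyme of mitochondria, had -0.38 at its brightest probe, -0.38 at a second and 0.06 at the dimmest. SULT1A1, a phenol sulfotransferase, had -0.32 at one probe and 0.08 at another. The remaining genes of these 10 were PAXIP1-DT (-0.40), OR4C45 (-0.54), KIAA0825 (at least 1.13-fold higher with mouse ERFE), NLRP8 (-0.53) and CRCP (-0.42).

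The BMP targets HAMP, ID1, ID3 and SMAD6 fell with both proteins against untreated cells, and their arrays with human and mouse ERFE overlapped. HAMP had log2 signals of 4.99, 5.36, 5.42 and 4.90 with human ERFE and 5.29, 4.88, 5.18 and 5.51 with mouse ERFE, against 6.96, 7.28, 7.24 and 6.62 in untreated cells. Both treated groups lay below all untreated arrays and overlapped with each other, and the gene was detected on 1 of 4 arrays in each. It fell by 1.85 with human ERFE and by 1.81 with mouse ERFE against untreated cells (adjusted p = 0.000722 and 0.00193). The difference between proteins was -0.05 with a 95% interval of -0.43 to 0.33, and since the probe was near background in both groups it bounds the signal and not the transcript. The bright targets give narrower bounds. ID1, an inhibitor of differentiation and direct SMAD target, had 12.37, 12.29, 12.04 and 12.40 against 12.36, 12.22, 12.43 and 12.48, a difference of -0.10 (interval -0.30 to 0.11). A second, dim ID1 probe had -0.42 and did not pass. ID3 had 11.31, 11.13, 10.74 and 11.05 against 11.16, 11.12, 11.26 and 11.36, a difference of -0.17 (interval -0.41 to 0.08). SMAD6, an inhibitory SMAD induced by the pathway, had -0.11 (interval -0.34 to 0.12), ID2 -0.14 (interval -0.37 to 0.10) and SMAD7 -0.02 (interval -0.26 to 0.23). The differences were -0.08 for BAMBI, a decoy receptor, -0.04 for MSX1, a homeobox factor, and -0.01 for HEY1, a transcriptional repressor.

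Of the 9 measured BMP targets 0 were called between the proteins, and all 9 were slightly lower with human ERFE (median -0.08), a direction that turned with median centring, where 7 of 9 were higher (median 0.03). Against untreated cells 5 of the 9 fell with human ERFE and 4 with mouse ERFE, where 15 and 16 of all genes fell (0.138% and 0.147%), and these comparisons share the untreated arrays. Side by side, the values with human and mouse ERFE were -1.01 and -0.84 for ID3, -0.97 and -0.86 for SMAD6, -0.75 and -0.66 for ID1, and -0.70 and -0.56 for ID2. The last value, ID2 with mouse ERFE, did not pass (adjusted p = 0.0605). A second ID2 probe had -0.74 and -0.66 and passed with both proteins (limma adjusted p = 0.00782 and 0.0187 over all probes). Among BMP ligands, receptors and SMADs 9 of 22 genes were measured, 0 were called, and BMPR2, a type II receptor, had -0.25.

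Beyond this list, the 27 genes called with human ERFE (0.248% of those tested) and the 24 called with mouse ERFE (0.22%) against untreated cells made 31 genes in all. They were selected on these arrays, so their differences between proteins are a description. For 25 of the 31 the 95% interval of the difference held 0, with differences from -0.20 to 0.19 and bounds from -0.49 to 0.42. For the other 6 it did not: CXCL1, NFKBIZ, CXCL6 and GPATCH1 were called with human ERFE, and PKN3 and TOR4A with mouse ERFE. GPATCH1 was near background, detected on 0 untreated, 3 human ERFE and 1 mouse ERFE array. TBX2, a T-box repressor, had 5.43, 6.15, 6.09 and 6.04 with human ERFE and 6.02, 5.74, 5.81 and 5.88 with mouse ERFE, below the 6.97 to 7.33 of untreated cells. Its values against untreated cells were -1.20 and -1.26, and the difference was 0.07 (interval -0.25 to 0.38). The long noncoding RNA UCA1 had -1.11 and -0.94, PFKFB3, an enzyme that drives glycolysis, -0.83 and -0.69, the nucleoside transporter SLC29A3 -0.69 and -0.69, and the intestinal homeobox factor CDX2 -0.60 and -0.71. Of genes that rose with both, NR0B2, the nuclear receptor SHP, had 0.57 and 0.66, LFNG, a Notch-modifying glycosyltransferase, 0.66 and 0.58, and the poly(A) polymerase gene TENT5C 0.59 and 0.69. The trefoil peptide gene TFF3 had 0.48 and 0.50, with an interval of -0.17 to 0.13 for the difference. TNFRSF1A, the main receptor of tumour necrosis factor, fell by 0.62 with mouse ERFE (adjusted p = 0.0217, a call that held in 19 of 29 alternatives) and had -0.44 with human ERFE (adjusted p = 0.167), and the interval of its difference was -0.03 to 0.40. Without untreated replicate 4, the untreated array low in class II, the counts of called genes were 52 and 156, and without untreated replicate 2 they were 11 and 10. They also moved by over 1.5 times without untreated replicate 1 (16 with human ERFE) or 3 (16 and 8), without human ERFE replicate 2, 3 or 4 (16, 14 and 13 with human ERFE) and without mouse ERFE replicate 3-A4 (15 with mouse ERFE).

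**Figure D4:**
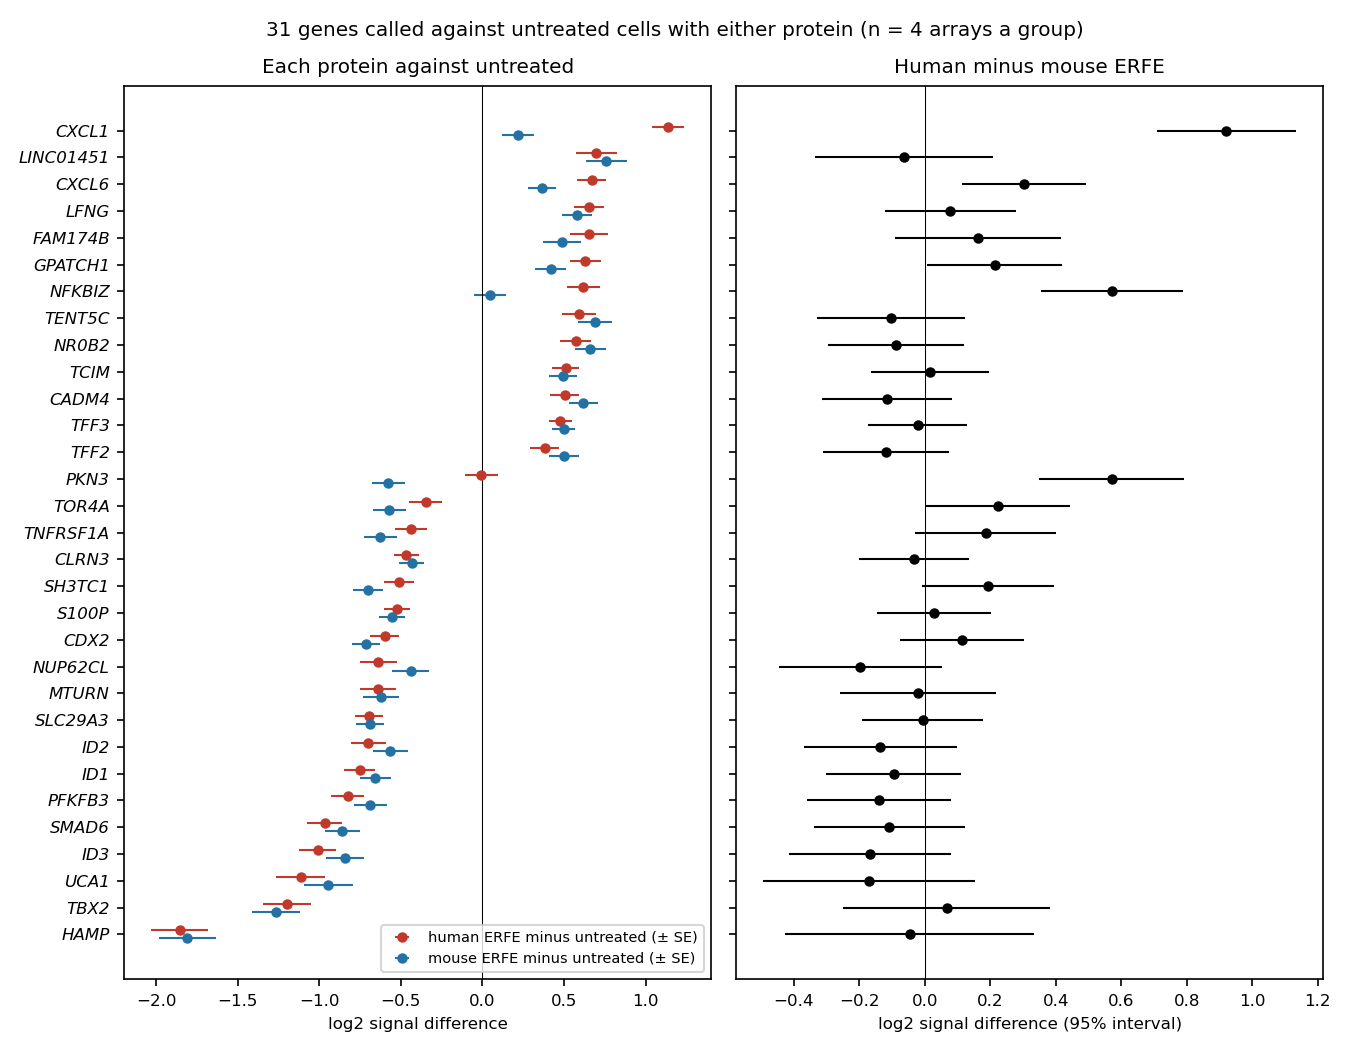
The 31 genes called against untreated cells with either protein: left, log2 difference from untreated cells with human (red) and mouse (blue) ERFE, ± SE; right, human minus mouse ERFE with its 95% interval (n = 4 arrays a group). The intervals of CXCL1, NFKBIZ, PKN3, CXCL6, GPATCH1 and TOR4A lie above 0, and those of the other 25 genes hold 0.

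Across the other gene lists 0 members were called between the proteins. The 22 interferon-stimulated genes had a median of 0.08, the 12 TGF-beta and activin targets 0.02, the 7 Notch pathway genes 0.02 and the 15 cell cycle genes 0.01, against 0.01 for all genes and 0.03 for the 9 reference genes. Single members that stood out without passing were the Notch target HES1 (0.27, arrays all above), the cell cycle inhibitor CDKN2B (-0.25, arrays all below) and the hepatocyte transcription factor ONECUT2 (-0.40, arrays all below, with -0.48, -0.26 and 0.00 at further probes). ONECUT2 had 8.40, 8.18, 8.58 and 8.63 with human and 8.71, 8.92, 8.76 and 9.01 with mouse ERFE, and 7.85 to 8.72 in untreated cells. The 5 measured stellate cell and fibroblast markers had a median of 0.31. They were 3 higher and 2 lower with human ERFE, and 0 were called. COL1A2, a collagen chain, had 0.66 (adjusted p = 0.81) at its brighter probe, detected on 4 of 4 human and 0 of 4 mouse arrays, and 0.14 at a second probe, detected on 3 human and 1 mouse array. PDGFRB had 0.41, detected on 3 human and 1 mouse array, and PDGFRA 0.31 (second probe 0.02). The matrix proteoglycan genes LUM and DCN had -0.01 and -0.14, with DCN detected on 1 human and 4 mouse arrays. COL1A1 was detected on 0 arrays, and signal near background limits this list. The mean signal of that list was 5.93 to 6.23 on human, 5.69 to 5.91 on mouse and 5.66 to 5.90 on untreated arrays.

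**Figure D5:**
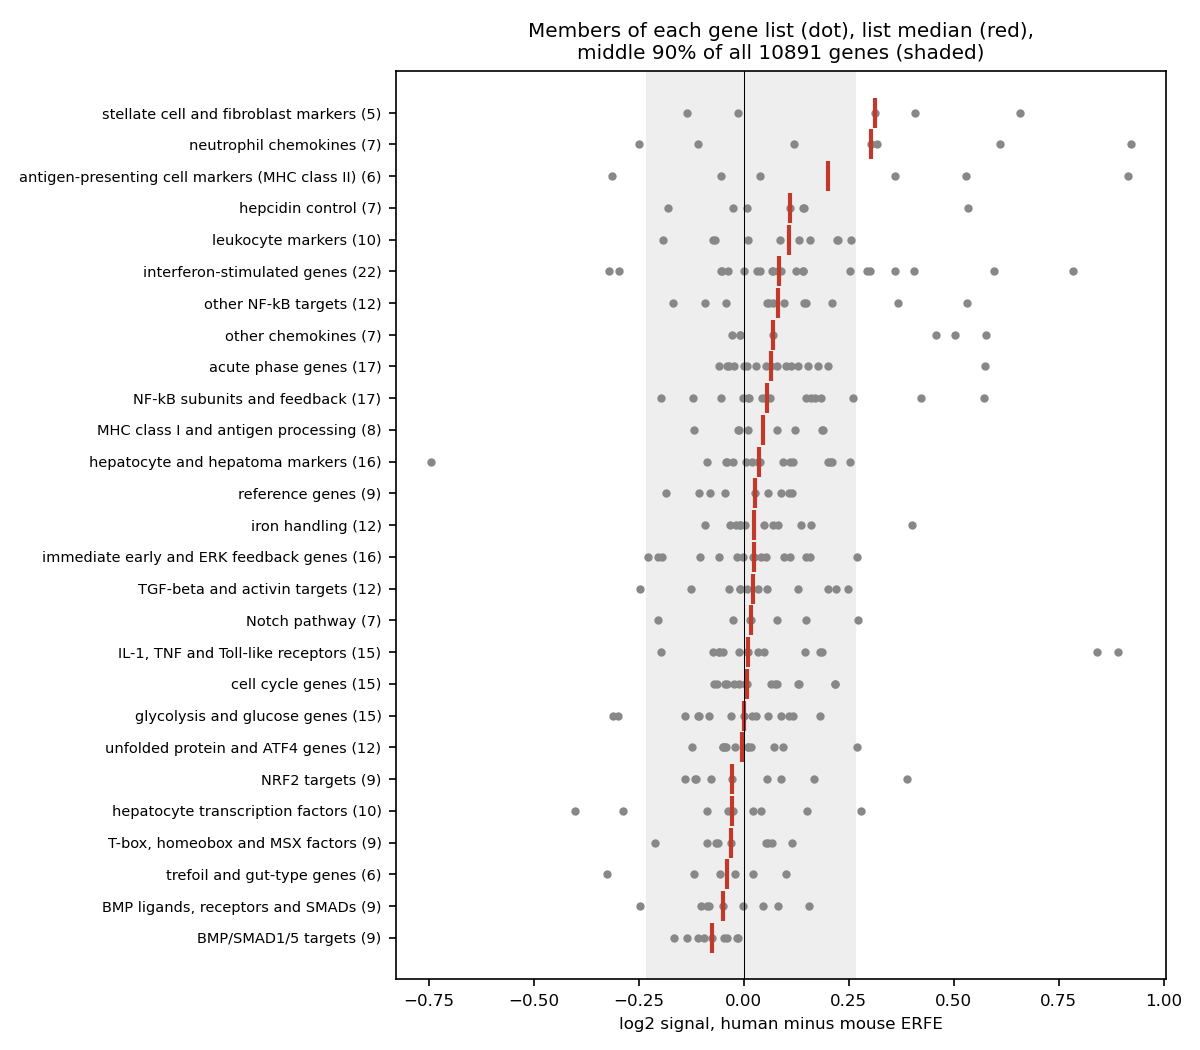
Log2 difference, human minus mouse ERFE (x axis), of the measured members (dots) and the median (red) of each list with at least 3 of them, the number in brackets; the shaded band holds the middle 90% of all 10891 genes, -0.23 to 0.26. The stellate cell and neutrophil chemokine lists have the highest medians (0.31 and 0.30) and the BMP/SMAD1/5 targets the lowest (-0.08).

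Some transcripts differed more between arrays of 1 group than between the proteins. HLA-DPA1 had 9.09, 6.02, 8.88 and 5.87 with human and 10.03, 5.90, 5.16 and 5.12 with mouse ERFE, so its difference of 0.92 had an interval of -2.04 to 3.88. The interferon-induced chemokine CXCL10 had 0.58 with an interval of -1.07 to 2.23. CCL22, a chemokine of dendritic cells that was looked at after its values were seen, had the largest positive difference of all genes, 0.98 (interval -0.91 to 2.86). It was detected on 2 of 4 human and 0 of 4 mouse arrays, and the interval of its difference held 0. Its mean signal with human ERFE was at least 1.16-fold higher, a bound that leaves out the spread between arrays. The log2 signal of CCL22 was 7.36 and 5.90 on the human ERFE arrays high in class II and 4.64 on the high mouse ERFE array. On the 5 low ERFE arrays it was 4.49 to 4.80. IL6 had 0.89 (interval -0.49 to 2.27), with 1.75 among the high arrays and 0.08 among the low ones. It too was detected on 2 of 4 human and 0 of 4 mouse arrays, with a bound of at least 1.24-fold on the means that leaves out the spread. KRT18, a keratin of simple epithelia and 1 of the 16 hepatocyte and hepatoma markers, had the largest negative difference, -0.74 (interval -2.07 to 0.58). Its signals were 8.53, 7.24, 7.96 and 8.55 with human ERFE, 8.77, 8.57, 8.94 and 8.98 with mouse ERFE and 5.82, 5.36, 5.02 and 8.62 on the untreated arrays. All human arrays lay below all mouse arrays, the closest pair being 8.55 and 8.57, and 3 untreated arrays lay far below both. A second, dim KRT18 probe had means of 5.91 with human and 6.17 with mouse ERFE, detected on 3 and 4 arrays. KRT18 and IL6 too were looked at after their values were seen.

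Detection gave few genes seen with 1 protein and not the other. All 4 arrays of both groups detected 8997 of the 10891 genes. Another 7 genes were detected on 4 of 4 human arrays and, with any probe, on 0 of 4 mouse arrays, namely GDPD3, IFIT5, KCNK9, LINC02601, SNORD35A, ZNF630 and ZRANB3, with signals at least 1.05- to 1.21-fold higher. The reverse held for GUCA1A and PATE2, at least 1.20- and 1.55-fold higher with mouse ERFE. None of these 9 passed (adjusted p from 0.81 to 0.932), and 339 and 197 genes had an unadjusted p under 0.05 in the 2 directions.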

How the data were processed

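Per the labels' protocols, RNA of Huh7 cells was extracted with an RNeasy kit and labelled for the arrays with an Ambion MessageAmp kit. The authors deposited an intensity on a linear scale and a detection p-value for each of 47323 probes, per the file headers. A deposited table described as normalized held the same intensity values (567876 of 567876), as did the series' value table. Lumi and limma are named without a role, per the submitters' processing notes; background handling is not given in the sources used here. Of the probes, 30113 had 1 gene symbol in the platform annotation, 8 several and 17202 none, and 30074 matched RefSeq (GRCh38.p14). ERFE's own transcript was not analysed here.

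Background correction and quantile normalization used the neqc function (offset 16) of limma 3.58.1 in R 4.3.3, with statmod 1.5.0. A probe was kept if 4 or more of the 12 arrays had its detection p below 0.05, and the probe with the highest mean stood for a gene. One linear model of the 3 groups (lmFit, eBayes) had 9 residual and 3.56 prior degrees of freedom, with two-sided p-values adjusted by Benjamini-Hochberg over all genes and a threshold of 0.05. A gene detected on 0 arrays of a group has a bound there, set by the lowest signal detected on each array. The bound applies to the ratio of the group means, in which undetected arrays of the other group kept their signal. It leaves out the spread between arrays and is not a confidence limit. Values of log2 signal are not comparable between genes. Precision is set by the number of arrays, which have no depth.

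The groups compared, gene lists and tests were chosen with earlier results of these data known. Genes named are those called, the 10 with the smallest p in each direction between proteins, those called against untreated cells, all measured neutrophil chemokines, NF-kB subunits and feedback genes and BMP targets, and the first 2 of every other list by p; the text gives those on which a paragraph turns. ALB, AFP, KRT18, CCL22, IL6 and the genes detected with 1 protein were added. The labels do not say whether replicate numbers stand for pairs, and the main model used none. Deviations of same-numbered human and mouse arrays correlated at 0.03, -0.09 and -0.39, with both mouse arrays titled replicate 3 averaged. So few values cannot exclude a shared culture or batch. In simulated data of 10891 genes for human against mouse ERFE, 94 of 99 genes changed 2-fold, 61 of 101 changed 1.5-fold and 2 of 10691 unchanged genes were called. The simulated noise was independent between arrays, and the 200 changed genes made the adjusted threshold easier to pass. These shares therefore do not give the chance of finding such a change in the real comparison, where 1 gene was called.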

Additional observations from a re-analysis of the deposited data

Results flagged for a closer look

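CXCL1 differed between cells given human and mouse ERFE by the test of the difference itself (0.92 on the log2 scale).

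Single arrays lay far from the other 3 of their group for 19 of the 232 sets of 4 values examined (8.19%), where chance gives about 1 in 20. Of these, 13 were replicate 1 of its group. Far below the others with human ERFE were CXCL1 on replicate 1 at 8.37 (others 8.63 to 8.65) and PKN3 on replicate 1 at 6.31 (others 6.59 to 6.63). Also below the rest with human ERFE were IKBKB on replicate 1 at 7.30 (others 7.63 to 7.66) and TBX2 on replicate 1 at 5.43 (others 6.04 to 6.15). Far above the others with human ERFE were ADAMTSL4 on replicate 1 at 6.44 (others 6.14 to 6.17), SPRY2 on replicate 3 at 8.94 (others 8.67 to 8.71) and UCA1 on replicate 2 at 6.996 (others 6.46 to 6.55). Also above the rest with human ERFE were TENT5C on replicate 1 at 8.73 (others 8.57 to 8.59), CHUK on replicate 3 at 10.07 (others 9.63 to 9.71) and RELA on replicate 4 at 7.61 (others 6.89 to 7.01). Far below the others with mouse ERFE were CXCL1 on replicate 1 at 7.42 (others 7.70 to 7.75), ADAMTSL4 on replicate 1 at 5.72 (others 5.82 to 5.82) and RAB13 on replicate 1 at 8.81 (others 8.87 to 8.89). Also below the rest with mouse ERFE were CXCL2 on replicate 3-A4 at 4.67 (others 5.18 to 5.27) and SLC25A37 on replicate 3-A4 at 4.83 (others 5.38 to 5.47). Far above the others with mouse ERFE were ZC3H12A on replicate 1 at 5.81 (others 5.18 to 5.28) and CCL3 on replicate 1 at 5.65 (others 4.77 to 4.85). Also above the rest with mouse ERFE were CXCL10 on replicate 1 at 9.25 (others 6.13 to 6.43) and HLA-DPA1 on replicate 1 at 10.03 (others 5.12 to 5.90). All are log2 signals. The CXCL1 difference without human or mouse ERFE replicate 1 was 0.99 and 0.84, and both passed.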

How the results depend on the processing

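Under 30 alternatives no called difference changed sign. CXCL1 remained past the threshold between human and mouse ERFE in 27 of them, at 0.62 (no background correction) to 1.08 (median centring). It did not pass with the 8 ERFE arrays alone (0.918, adjusted p = 0.0731), the title number as a block (0.897, adjusted p = 0.0514) or without the arrays high in class II (0.906, adjusted p = 0.741), and in these 3 settings 0 genes were called between the proteins. The cause was not tested. No other gene was called between the proteins in any setting. Leaving out 1 array gave 0.844 to 0.989 for CXCL1 and 1 to 1 called genes.

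Whether replicate numbers stand for pairs is not given in the labels, so they were also tried as a block. With a replicate block CXCL1 had 0.956 (adjusted p = 0.00987), and 13 genes were called with human ERFE and 58 with mouse ERFE against untreated cells, against 27 and 24 without it. With human ERFE the count against untreated cells was 6 with median centring, 15 and 5 with the title letter and number as blocks, 17 with the class II level as a covariate, 0 without the arrays high in class II, and 11 to 52 leaving out 1 array. With mouse ERFE it was 4 with median centring, 79 without background correction, 38 with an offset of 50, 57 with detection p under 0.01 and 62 with detection on all 12 arrays. It was 8 and 0 with the title letter and number as blocks, 13 with both arrays titled replicate 3 averaged, 70 with a trended prior, 63 with array weights, 0 without the arrays high in class II, and 8 to 156 leaving out 1 array. The settings that gave 0 calls had fewer samples or fewer degrees of freedom. So did settings that kept calls, such as the replicate block, and the cause of the lost calls was not tested. Signal near background limits HAMP, CXCL2, the genes given as bounds and other dim genes, such as GPATCH1, ZC3H12A, OR4C45 and PDGFRB. With 4 arrays a group the median distance from a difference to its 95% bound was about 0.26 on the log2 scale. That bound holds for single genes without adjustment. Larger differences, such as 0.57 for NFKBIZ and 0.78 for CD38, did not pass the adjusted threshold.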
